A study of Sus scrofa with 599 samples.

Results

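The HOXC cluster was followed through 4 adipose depots and 3 diets of the pig. It was taken as the 9 protein-coding genes HOXC4, HOXC5, HOXC6, HOXC8, HOXC9, HOXC10, HOXC11, HOXC12 and HOXC13, chosen by symbol, out of 21280 protein-coding genes in the expression table. The samples came from 2-year-old adult female Bama pigs on a normal diet (NC), after 22 weeks of a high-fat diet (WG), or after that same high-fat diet followed by 12 weeks at 10% of the normal caloric intake (WL). The depots were the greater omentum (GOM), the mesenteric (MAD) and the retroperitoneal adipose tissue (RAD), which are visceral, and the upper layer of backfat (ULB), which is subcutaneous. Each library came from 1 depot of 1 pig, and the depots share pigs. RNA-seq libraries numbered 9, 12, 12 and 5 in NC, 45, 36, 39 and 38 in WG, and 10 in each depot of WL, in the order GOM, MAD, RAD and ULB. Hi-C, which reads contacts between genomic regions, gave 240 libraries in the same 12 groups, and H3K27ac ChIP-seq, which marks active promoters and enhancers, gave 18 tables pooled by depot and diet, with WG split into subgroups.

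HOX genes encode homeodomain transcription factors that give cells their position along the head-to-tail axis of the embryo. Within a cluster the genes lie in the order of the body levels at which they act, so that the low-numbered genes are used from anterior levels on and the high-numbered genes only towards the tail, and adult mesenchymal cells, including the precursors of adipocytes, keep part of this code. HOX proteins bind DNA together with PBX and MEIS cofactors, and Polycomb and trithorax complexes hold their clusters silent or active.

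The 9 genes lay on the plus strand of chromosome 5 (Sscrofa11.1), from the start of HOXC13 at 19151096 to the end of HOXC4 at 19268267, a span of 117.2 kb. HOXC13 (ENSSSCG00000000279), HOXC12 (ENSSSCG00000000281), HOXC11 (ENSSSCG00000028104) and HOXC10 (ENSSSCG00000022728, 19197810 to 19202975) came first. HOXC9 (ENSSSCG00000034474, 19212490 to 19215859), HOXC8 (ENSSSCG00000038644, 19222124 to 19225734), HOXC6 (ENSSSCG00000030585, 19230227 to 19243522), HOXC5 (ENSSSCG00000040798) and HOXC4 (ENSSSCG00000038993) followed. The annotation placed 7 further genes within the span, 4 of them antisense lncRNAs and 2 of them microRNAs. The read counting used strand, so that sense and antisense transcripts were separable.

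The promoters of HOXC9 and HOXC6 are shown because HOXC9 gave the most depot calls and HOXC6 the most diet calls over all libraries. A further reason was that H3K27ac covered the start of HOXC6 in every table and that of HOXC9 in some tables only. Each promoter window covers 250 bases before to 50 bases after the annotated start of the gene (Sscrofa11.1, chromosome 5, plus strand), and capitals mark CpG pairs.
HOXC9 promoter, 19212240 to 19212539: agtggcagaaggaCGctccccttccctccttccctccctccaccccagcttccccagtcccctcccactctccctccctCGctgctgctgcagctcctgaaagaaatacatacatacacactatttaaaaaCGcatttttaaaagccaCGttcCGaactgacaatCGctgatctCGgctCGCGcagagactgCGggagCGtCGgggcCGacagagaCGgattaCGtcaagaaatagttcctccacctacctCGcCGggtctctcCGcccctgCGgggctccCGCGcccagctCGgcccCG
HOXC6 promoter, 19229977 to 19230276: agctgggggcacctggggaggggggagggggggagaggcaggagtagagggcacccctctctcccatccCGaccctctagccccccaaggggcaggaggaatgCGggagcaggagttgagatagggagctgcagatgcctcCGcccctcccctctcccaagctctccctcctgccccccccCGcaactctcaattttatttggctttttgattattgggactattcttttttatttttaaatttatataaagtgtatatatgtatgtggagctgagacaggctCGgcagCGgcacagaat
The HOXC9 window held 23 CpG pairs, and 66.7% of 18699 promoter windows of the same length held as few or fewer, with a median of 16 over all windows. The HOXC6 window held 6, with 28.1% of windows at or under that number. The motif TATAAA, read on both strands, was found in the windows of HOXC5 and HOXC6, 2 of the 9 genes, and in 10.8% of all windows. The PBX-HOX motif TGATTNAT, also read on both strands, was in 0 of 9 windows and in 2.28% of all windows.

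The protein-coding counts of the 236 RNA-seq libraries ran from 3337098 to 22939420, with a median of 16791659. The libraries fell apart by the share of their summed protein-coding TPM (an abundance scaled to transcript length and to the library total) on 13 mitochondrially encoded genes. This share was 11.2% to 38.8% in 100 libraries and 0.653% to 7.65% in the other 136, and the limit of 10% between them was set after the values were seen. The set above 10% held 30 NC, 70 WG and no WL libraries, among them all 9 of NC GOM. The labels used here give no reason for the split. In WG, 42 of 45 replicate numbers found in 2 or more depots stood in 1 set in all their depots. In NC this held for 6 of 12. Comparisons of the HOXC genes between depots and between diets are therefore given over all libraries and within the sets. All 6 adipocyte markers had medians above 0.5 TPM in every group. Their median summed TPM was lowest in GOM under each diet, in NC 7982 against 15090 to 19740 in the other depots. That of progenitor and fibroblast markers was highest in ULB under each diet, in NC 5429 against 1596 to 2162. That of macrophage markers was highest in GOM under each diet, in NC 853 against 326 to 549. Mesothelial markers, of which 3 of 7 were in the table, had summed medians of 53.7 to 92.1 TPM in GOM and of 3.36 to 13.4 TPM in the other depots. The part of these cell types in the depot differences was not tested, and in bulk tissue fewer cells of a type and less RNA per cell cannot be told apart.

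The anterior and central genes HOXC4 to HOXC8 were expressed in most groups, HOXC9 was expressed outside GOM, HOXC10 was expressed in RAD, and HOXC11, HOXC12 and HOXC13 stayed low. HOXC4 and HOXC6 passed the filter for expression, TPM above 0.5 in at least 80% of the libraries of a group, in 12 of 12 groups. HOXC5 passed in 11, HOXC8 in 9 (not in GOM), HOXC9 in 8 (not in GOM or in NC MAD) and HOXC10 in 1, NC RAD. HOXC11 and HOXC12 reached 3 counts in 2 of 236 libraries each, HOXC13 in 56 and HOXC10 in 64. The summed TPM of the 9 genes had its lowest median in GOM under each diet, 9.88 in NC, 5.95 in WG and 6.13 in WL. The medians in RAD were 26.6, 15.9 and 15.6, and those in ULB 21.5, 16.3 and 16.7. HOXC9 made up 1.13% of that sum in NC GOM, 21.6% in NC RAD and 26.3% in NC ULB.

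**Figure D1:**
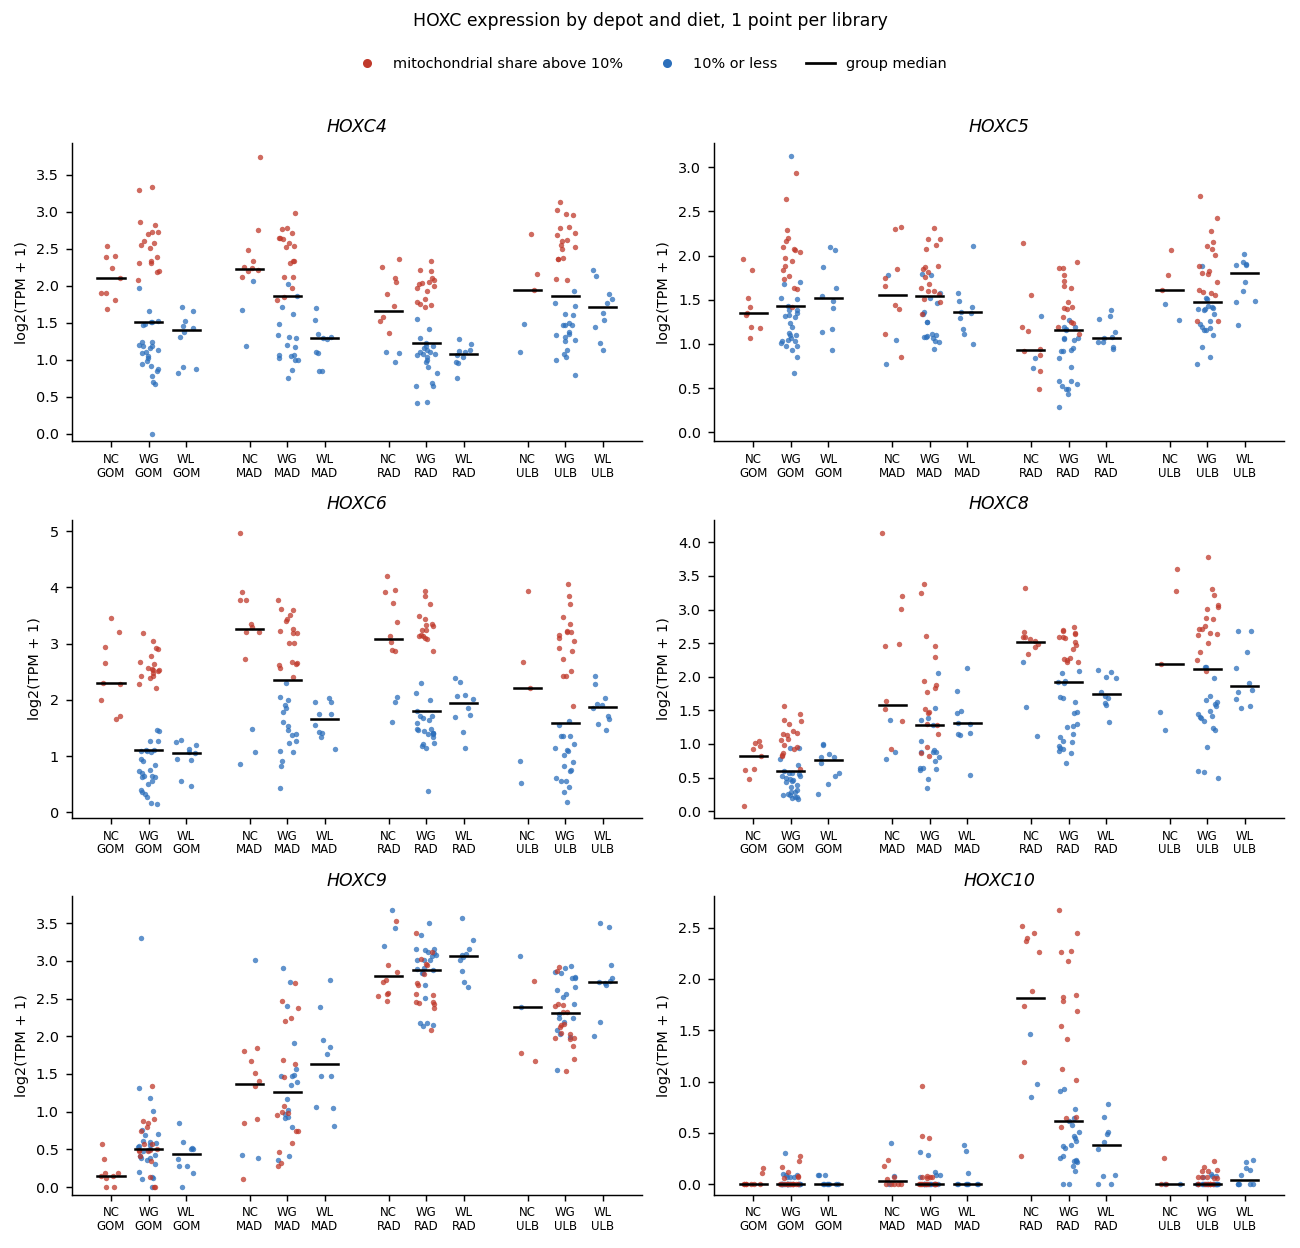
Level of 6 HOXC genes as log2(TPM + 1) on the y axis in the 12 diet-by-depot groups, with 1 point per library, colored by a mitochondrial share above 10% or at or below it, and a bar at the group median. The HOXC9 median was lowest in GOM and highest in RAD under each diet, and the HOXC10 median was 2.51 TPM in RAD of NC pigs.

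Between depots HOXC8 and HOXC9 were lower in GOM than in each other depot in every comparison tested, HOXC6 was lower in GOM in WG and WL, and HOXC10 was higher in RAD of NC than in the other depots. Over the 18 depot comparisons, 42 of 92 tests of a HOXC gene passed (adjusted p under 0.05 and a fold above 1.5), with 11.3% of tests passing over all genes. In the 9 comparisons of GOM with another depot, 24 tests passed with the higher level outside GOM and 2 with the lower, of 45, and 6.39% of tests over all genes passed as higher outside GOM. HOXC8, HOXC9 and HOXC10 did not pass the filter in any GOM group and entered these comparisons through the depot in which they were high, so that the counts describe the genes tested only. Without the filter 41 of the 42 calls were kept. Against MAD, 1 of 4 genes tested differed from GOM in NC (17.7% of all genes), 3 of 5 in WG (6.27%) and 3 of 5 in WL (5.97%). Against RAD, 3 of 6 differed from GOM in NC (19.5%), 4 of 5 in WG (11.2%) and 4 of 5 in WL (12.2%). Against ULB the counts were 2 of 5 in NC (25.4%), 3 of 5 in WG (17.9%) and 3 of 5 in WL (16%). Between MAD and RAD, 2 of 6 differed in NC (2.41%), 3 of 5 in WG (5.40%) and 1 of 5 in WL (7.31%). Between MAD and ULB, 2 of 5 differed in WG (14.4%) and 3 of 5 in WL (14.4%). In NC this was 0 of 5 by edgeR (7.73%), with 1 gene at an unadjusted p under 0.05 and 0 of 5 by DESeq2 and by limma. Between RAD and ULB, 1 of 6 differed in NC (4.32%), 2 of 5 in WG (9.27%) and 2 of 5 in WL (4.34%).

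HOXC9, which acts at thoracic levels and below, ordered the depots the same way under each diet, with RAD highest, then ULB, MAD and GOM. In NC its TPM was 0 to 0.483 in GOM (median 0.104), 0.0744 to 7.09 in MAD (median 1.59) and 4.55 to 11.8 in RAD (median 5.97). The 5 NC ULB libraries had 7.38, 2.44, 4.26, 5.66 and 2.18 TPM. Every RAD and ULB library of NC was above every GOM library, while MAD overlapped with all 3 others. HOXC9 was higher in RAD than in GOM by 5.42 ± 0.42 in NC (log2 fold ± SE, edgeR adjusted p = 1.491e-09), by 3.54 ± 0.22 in WG (7.849e-26) and by 4.37 ± 0.31 in WL (7.455e-10). In NC GOM the median was under 3 counts, so that the fitted fold there depends on the prior count. ULB was above GOM by 4.72 ± 0.62, 3.0 ± 0.23 and 4.06 ± 0.35 in the same order of diets, and each passed. MAD stood between them, 1.86 ± 0.30 above GOM in WG and 2.75 ± 0.41 above it in WL, and below RAD by 1.99 ± 0.42, 1.67 ± 0.21 and 1.63 ± 0.29 in NC, WG and WL. RAD and ULB, neighbours in this order, did not differ by the thresholds, at -0.69 in NC (adjusted p = 0.2841), -0.52 in WG (7.213e-05, under the fold limit) and -0.30 in WL (0.556), as ULB over RAD. The ranges of GOM and RAD did not overlap in WL (0 to 0.807 against 5.27 to 10.9 TPM). They overlapped in WG through 1 GOM library, replicate 35, which had 8.90 TPM at the lowest depth of all libraries, while the next highest GOM library had 1.52 TPM.

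HOXC10, an abdominal to lumbar gene, was measured mainly in RAD. In NC its TPM was 0.213 to 4.71 in RAD (median 2.51), at most 0.117 in GOM, at most 0.325 in MAD and at most 0.194 in ULB. The RAD range lay above those of GOM and ULB and overlapped with that of MAD. RAD was higher than GOM by 6.41 ± 0.73 (5.513e-07) and higher than MAD by 5.33 ± 0.59 (1.121e-06), and ULB was lower than RAD by 5.91 ± 1.00 (log2 fold ± SE, adjusted p = 0.001059). No GOM or ULB library of NC reached 3 counts, so that these fitted folds depend on the prior count as well. Over all libraries the gene passed the filter in NC RAD alone and entered its 3 depot tests through that group. In WG and WL the gene fell below the filter in every depot, with RAD medians of 0.532 and 0.302 TPM against medians of 0 to 0.032 elsewhere.

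HOXC8, a thoracic gene, was lower in GOM than in each other depot under each diet. Its TPM in NC was 0.0524 to 1.06 in GOM (median 0.772), 0.714 to 16.5 in MAD (median 1.99) and 1.18 to 8.95 in RAD (median 4.70). The NC ULB libraries had 1.31, 8.69, 1.77, 3.55 and 11.2 TPM. RAD and ULB lay wholly above GOM and MAD overlapped with it. The log2 folds over GOM in NC were 2.71 ± 0.61 in MAD (adjusted p = 0.003282), 2.76 ± 0.36 in RAD (4.711e-06) and 2.85 ± 0.51 in ULB (0.0006161). In WG they were 1.66 ± 0.25, 2.14 ± 0.20 and 2.56 ± 0.22, and in WL 1.43 ± 0.30, 2.01 ± 0.23 and 2.33 ± 0.27, and all 6 passed. HOXC8 passed 11 of 18 depot comparisons, the other 2 of them between MAD and ULB, where ULB was higher by 0.90 ± 0.27 in WG and by 0.92 ± 0.29 in WL. RAD was above MAD in WL by 0.59 ± 0.26 (adjusted p = 0.1387), which passed with the replicate number as a block, the numbers pairing these samples (0.67 ± 0.20, adjusted p = 0.02981).

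HOXC6, a lower cervical to upper thoracic gene, also had its lowest median in GOM in WG and WL. In WL its TPM was 0.386 to 1.43 in GOM (median 1.09), 1.18 to 3.09 in MAD (median 2.14), 1.20 to 4.21 in RAD (median 2.83) and 1.75 to 4.35 in ULB (median 2.68). ULB lay wholly above GOM there, and the other ranges overlapped. MAD, RAD and ULB were above GOM by 1.15 ± 0.24, 1.49 ± 0.25 and 1.42 ± 0.22 in WL and by 1.02 ± 0.29, 1.05 ± 0.29 and 0.81 ± 0.32 in WG, and each passed (log2 fold ± SE, edgeR). In NC none passed over all libraries, with 0.96 in MAD (adjusted p = 0.172), 0.83 in RAD (0.0977) and -0.17 in ULB (0.839). Among NC libraries with a mitochondrial share above 10%, HOXC6 was higher than in GOM by 1.33 in MAD (0.01478) and by 1.14 in RAD (0.009962).

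The anterior pair HOXC4 and HOXC5, the genes used from the neck on, ordered the depots differently, with RAD lowest under each diet. HOXC4 in WL had 0.681 to 1.43 TPM in RAD (median 1.12) and 1.20 to 3.64 in ULB (median 2.27), and the ranges overlapped. It was higher in ULB than in RAD by 0.87 ± 0.19 in WG (adjusted p = 0.0001875) and by 0.99 ± 0.20 in WL (0.002274), lower in RAD than in MAD by 0.68 ± 0.20 in WG (0.01089), and higher in ULB than in MAD by 0.65 ± 0.21 in WL (0.0323). HOXC5 in WL had 0.921 to 1.61 TPM in RAD (median 1.10) and 1.31 to 3.04 in ULB (median 2.48). HOXC5 was lower in RAD than in GOM by 0.68 ± 0.17 in WG (0.001091) and by 0.68 ± 0.24 in WL (0.04936), the 2 tests in which a HOXC gene was lower outside GOM. It was higher in ULB than in RAD by 0.72 ± 0.16 in WG and by 0.93 ± 0.21 in WL, and lower in RAD than in MAD by 0.63 ± 0.16 in WG. HOXC4 passed 4 of 18 depot comparisons and HOXC5 passed 5 of 18, none of them in NC.

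**Figure D2:**
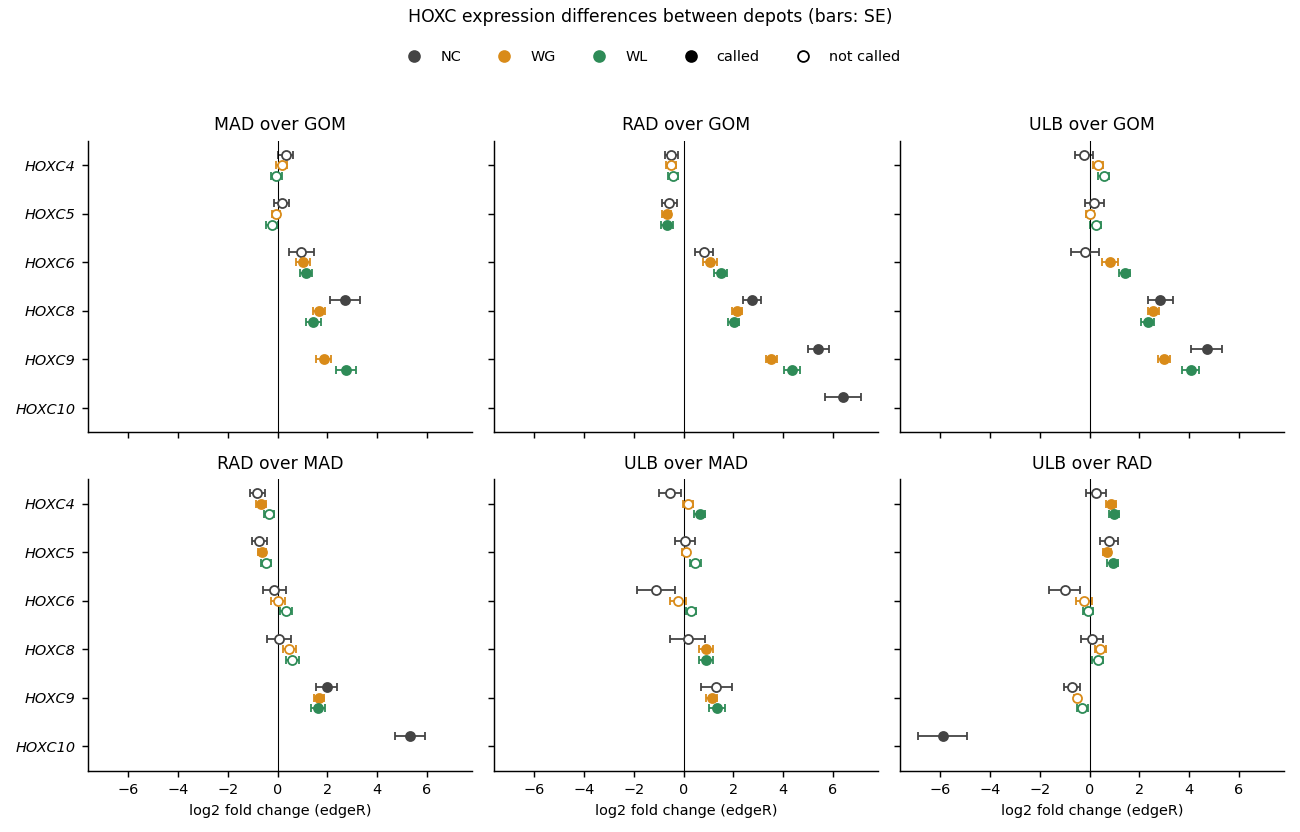
Log2 fold change of 6 HOXC genes between each pair of depots on the x axis, as the edgeR estimate with its SE, colored by diet, with filled points for differences that passed. Over GOM, HOXC8 and HOXC9 lay above 0 in each comparison tested, and HOXC5 in RAD of WG and WL lay below it.

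The depot differences were also present within the library sets. With the set as a term in the 9 comparisons where both groups held both sets, 21 of 47 tests passed (9.35% of all genes), against 20 for the same comparisons without the term, and 18 tests passed in both. Among libraries above 10%, 32 of 66 tests passed in 12 comparisons (9.49%). Among libraries at or below 10%, 35 of 76 passed in 15 comparisons (9.01%). HOXC9 in WG was higher in RAD than in GOM by 3.56 in the set above and by 3.51 in the set below (log2 fold).

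Between diets HOXC4, HOXC6, HOXC8 and HOXC10 fell in visceral depots over all libraries, and most of these calls were lost when the library sets were kept apart. Over all libraries 18 of 56 tests passed in 12 comparisons, each lower in the later diet, while over all genes 17.2% of tests passed and 9.81% passed as lower in the later diet. In GOM, 1 of 3 genes tested fell from NC to WG (26.7% of all genes) and 2 of 3 from NC to WL (36.1%). From WG to WL in GOM, edgeR called 0 of 3 (5.26%), with 2 at an unadjusted p under 0.05 and 1 called by DESeq2. In MAD, 3 of 5 fell from NC to WG (10.7%), 2 of 5 from WG to WL (17.4%) and 3 of 5 from NC to WL (33.1%). In RAD, 3 of 6 fell from NC to WG (16.7%) and 4 of 6 from NC to WL (26.7%), with 0 of 5 from WG to WL by edgeR (6.37%), 2 at an unadjusted p under 0.05 and 1 by DESeq2. In ULB, edgeR called 0 of 5 from NC to WG (2.38%), 0 of 5 from WG to WL (8.12%) and 0 of 5 from NC to WL (14.8%). The genes at an unadjusted p under 0.05 in ULB numbered 0, 2 and 2 in that order, and DESeq2 called 0 in each. Without NC ULB replicate 2, or without replicate 7, HOXC6 and HOXC8 were called as lower in WL than in NC, 2 of 10 tests, with 10.2% and 10.8% of all genes called in the NC comparisons of ULB. These were the 2 NC ULB libraries of low mitochondrial share (2.05% and 3.09%). Leaving out either shifts NC towards the set above 10%.

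HOXC6 gave the most diet calls, 7 of 12. In GOM its TPM was 2.18 to 9.96 in NC (median 3.95), 0.102 to 8.11 in WG (median 1.16) and 0.386 to 1.43 in WL (median 1.09). Every WL library lay below every NC library there, and WG spanned both. From NC to WL HOXC6 fell by 2.62 ± 0.31 in GOM (log2 fold ± SE, adjusted p = 5.859e-07), by 2.42 ± 0.49 in MAD (0.0005158) and by 1.96 ± 0.34 in RAD (0.0001406). Among libraries with a mitochondrial share of 10% or less, the direction in MAD turned for HOXC6 (0.70, adjusted p = 0.2113) and for HOXC8 (0.54, 0.4532). That comparison rests on 3 NC and 10 WL libraries. HOXC4 fell between the same diets by 1.47 ± 0.22 in GOM (1.183e-05), by 1.87 ± 0.31 in MAD (9.04e-05) and by 1.39 ± 0.26 in RAD (0.0002921). HOXC8 fell from NC to WL by 1.68 ± 0.53 in MAD (0.01333) and by 1.16 ± 0.25 in RAD (0.0009866). HOXC10 in RAD fell by 1.47 ± 0.45 from NC to WG (0.009944) and by 3.44 ± 0.57 from NC to WL (9.002e-05). It passed the filter in NC RAD alone and entered only these 2 diet comparisons through that group. Without the filter its change from WG to WL in RAD was not called (-1.96, edgeR adjusted p = 0.05451). HOXC5 passed in 0 of 12 and HOXC9 in 0 of 9 diet comparisons by edgeR, with 0 and 2 at an unadjusted p under 0.05 and 0 and 0 called by DESeq2 or limma.

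Within WG, which held both library sets in each depot, HOXC6 separated them. Most replicate numbers stood in the same set in all their depots, so the depots are not independent observations of this separation. Its medians above and at or below 10% were 4.80 and 0.655 TPM in GOM, 8.15 and 1.69 in MAD, 8.70 and 1.75 in RAD, and 7.72 and 0.947 in ULB. In each depot the lowest HOXC6 library of the set above was higher than the highest of the set below, by the narrowest margin in MAD (4.31 against 3.95 TPM). HOXC10 in RAD had medians of 2.34 and 0.291 TPM, HOXC8 in ULB 5.65 and 1.71, and HOXC4 in GOM 4.95 and 1.19. HOXC9 did not follow this order, and its median in the set above was 0.654 to 0.982 times that in the set below over the 4 depots. HOXC13 had medians of 0 TPM in the set above and of 0.143 to 0.255 TPM in the set below.

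**Figure D3:**
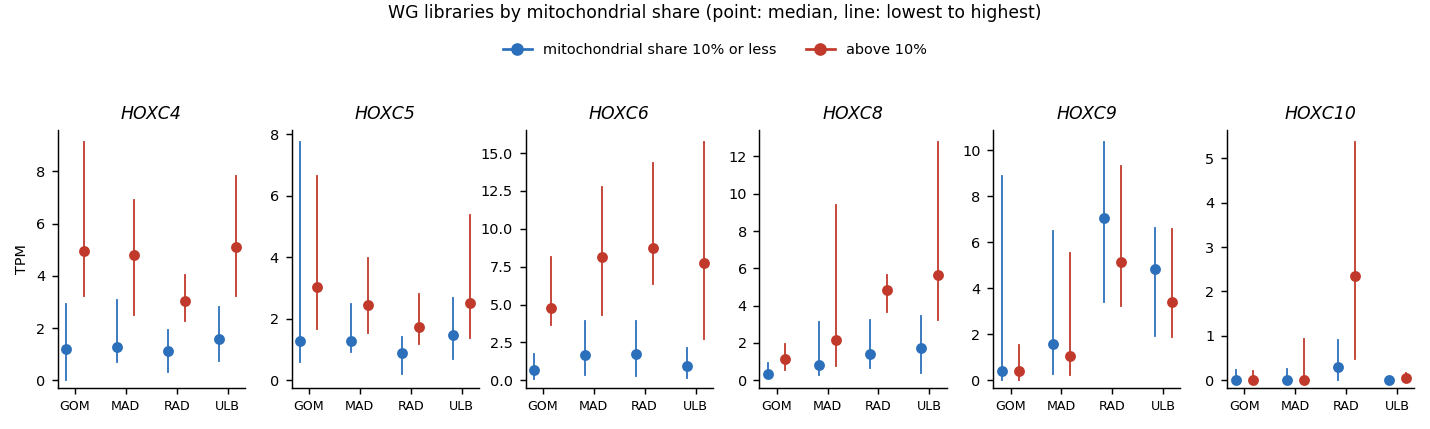
TPM of 6 HOXC genes in the WG libraries of each depot, split by a mitochondrial share above 10% or at or below it, with points at the median and lines from the lowest to the highest library. The lines of the sets do not overlap for HOXC6, while those of HOXC9 overlap in each depot.

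Most diet differences were not called when the library sets were kept apart. Over all libraries, 11 tests passed by limma on log2(TPM + 1) in place of 18 (17% of all genes). Without the libraries that had less than 88% of their summed TPM on protein-coding genes, 9 of 58 passed. There the share over all genes was 9.13% in place of 17.2%. With the set as a term, possible in 3 diet comparisons, 1 of 16 tests passed (10.1% of all genes) against 6 for the same comparisons without it. The test that passed was HOXC10 in RAD from NC to WG, which fell by 1.12. This gene entered the comparison through NC RAD, the group in which it was high. Among libraries above 10%, 1 of 20 passed in 4 comparisons (10.8%) against 7 without the split, HOXC6 in MAD from NC to WG, which fell by 0.95 (adjusted p = 0.01012). Among libraries at or below 10%, 5 of 49 passed in 10 comparisons (8.04%) against 15. There HOXC6 in ULB was higher in WL than in WG by 1.32 (0.0001811) and than in NC by 1.76 (0.01403). HOXC8 in ULB was higher in WL than in WG by 0.71 (0.0182). HOXC10 in RAD fell by 1.93 from NC to WG (0.02277) and by 2.20 from NC to WL (0.04502). In this set NC held only 2 libraries of ULB and 3 each of MAD and RAD. The counts with and without the split therefore rest on different numbers of libraries. Since no WL library and every NC GOM library stood in 1 set, diet and set cannot be told apart in GOM between NC and WL.

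HOXC13, the most posterior gene and one known from hair follicles and nails, was below the filter in every group. Its medians were 0.551 TPM in WL GOM, 0.369 in WL MAD, 0.584 in WL RAD and 0.554 in WL ULB, and 0 in NC apart from 0.199 in ULB. Without the filter on low values, 25 of 107 diet tests of the 9 genes passed, of which 7 were higher in the later diet (16.7% over all genes), and 46 of 161 depot tests passed (9.73%). HOXC13 made up 6 of those 7, and the other was HOXC9 in GOM from NC to WG (1.61). It was higher in WL than in NC by 2.90 in GOM, 2.28 in MAD and 2.82 in RAD, and than in WG by 1.70 in GOM, 2.02 in RAD and 1.75 in ULB (log2 fold, edgeR without filter). The WL libraries all stood in the set of low mitochondrial share, in which the medians of HOXC13 within WG were also above 0, and the part of the set in the result was not tested for this gene. Without the filter HOXC10 was also called as higher in RAD than in GOM, MAD and ULB of WG and than in GOM of WL, and HOXC9 as higher in MAD than in GOM of NC (3.43).

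Whether depot differences depended on diet was tested with the interaction terms of 1 fit over the 12 groups. It was called for 0 of 6 HOXC genes tested by edgeR (13.9% of all genes), with HOXC9 (adjusted p = 0.114) and HOXC10 (0.063) at an unadjusted p under 0.05. On log2(TPM + 1) with limma it was called for HOXC10 alone (11.8% of all genes), as with the library set as a term (0.0143, 18.6%). With the replicate block it was called for HOXC6 (0.0232) and HOXC10 (0.01304), where 44.4% of all genes were called.

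The other HOX genes and their partners gave the frame for these differences. Of 25 other HOX genes measured, 19 were tested, and 176 of 315 depot tests passed, against 11.3% over all genes. Of these, 73 were higher and 103 lower in the second depot of a pair (in the order GOM, MAD, RAD, ULB), and the median log2 fold of the list ran from -0.73 to 0.31 over the comparisons, against -0.03 to 0.04 over all genes. In GOM against RAD of NC, 15 of 18 passed, 7 higher and 8 lower in RAD. HOXA10, an abdominal gene like HOXC10, had 0 to 0.344 TPM in NC GOM and 3.71 to 12.0 in NC RAD and was higher in RAD by 5.20 ± 0.41 (log2 fold ± SE, adjusted p = 1.563e-09), HOXA9 was higher there by 5.01 ± 0.29, and HOXD8 was higher in NC ULB than in NC GOM by 3.66 ± 0.21. HOX cofactors (7 of 9 tested) passed in 52 of 126 depot tests (41.3%, against 11.3% over all genes). Each was lower in the second depot, with list medians of -1.34 to -0.03. MEIS1 was lower in WL ULB than in WL GOM by 2.75 ± 0.16, with 66.2 to 120 TPM in GOM and 7.82 to 20.5 in ULB. Polycomb and trithorax genes (22 of 24 tested) passed in 7 of 396 depot tests (1.77%, against 11.3% over all genes). They passed in 49 of 264 diet tests (18.6%, against 17.2% over all genes). Their medians ran from -0.28 to 0.11 between depots and from -0.38 to 0.08 between diets. The largest diet change was in KDM6B, which removes the Polycomb mark and fell by 1.88 ± 0.24 in GOM from NC to WL. In that GOM comparison 36.1% of all genes passed, and diet and library set cannot be told apart. The largest depot difference was in KMT2A, a trithorax methyltransferase, lower by 0.98 ± 0.30 in NC ULB than in NC GOM. Between diets 41 of 190 tests of other HOX genes (21.6%) and 13 of 84 of cofactors (15.5%) passed, near the 17.2% over all genes. These lists were tested over all libraries only and not within the library sets.

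The genes whose levels over the 236 libraries were most like those of a HOXC gene differed between the anterior and the posterior genes. The points share depots, pigs and library sets, so r is given as a description. Among the genes nearest to HOXC9 were HOXD8 (Pearson r = 0.842 of log2(TPM + 1)) and SULT1B1 (0.78), and r with HOXD8 was 0.84 within the set above 10% and 0.847 within the set below. HOXC10 was nearest to HOXA9 (0.719), HOXA10 (0.677) and ALX1 (0.635), a gene with RAD medians of 5.70, 4.63 and 5.99 TPM in NC, WG and WL. HOXC8 was nearest to PCDH17 (0.73), HOXD3 (0.729) and SERINC2 (0.716). HOXC4 was nearest to PCGF2 (0.87), ZNF462 (0.87) and NFIX (0.869), and r with PCGF2 was 0.595 and 0.541 within the sets. HOXC5 was nearest to CD34 (0.718) and CBX6 (0.71). HOXC6 was nearest to BAG3 (0.861), where r was 0.16 within the set above and 0.524 within the set below. Within the cluster, HOXC8 and HOXC9 had r of 0.807 and 0.74 within the sets, against -0.0552 and 0.149 for HOXC4 and HOXC6.

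The chromatin compartment of the cluster, by contrast with its RNA, was called as different in no depot comparison. The A-B index of 20-kb bins, positive in the active A compartment, was above 0 in 240 of 240 Hi-C libraries in each of the 6 bins that hold the HOXC starts. Its means over libraries were 2.42 in the bin of HOXC13, 2.84 for HOXC12, 3.14 for HOXC10 and HOXC11, 3.35 for HOXC9, 3.52 for HOXC6 and HOXC8 and 3.23 for HOXC4 and HOXC5, above 76.3%, 80.4%, 83.3%, 85.3%, 86.9% and 84.2% of all bins. The means were higher from bin to bin from HOXC13 to HOXC8 and HOXC6, and the HOXC11 and HOXC12 bins were in the A compartment although these genes were close to 0 TPM.

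Between depots, limma called 0 of 108 tests of these bins (adjusted p under 0.05 and a difference above 0.75), with 12 at an unadjusted p under 0.05 and differences of -0.40 to 0.69. Without the limit on the difference it called 7 of 108, against 29.2% of all bins, and after quantile normalization 0. Of all bins, 9.11%, 6.27% and 13% passed between GOM and MAD in NC, WG and WL. Between GOM and RAD these shares were 18.6%, 12.0% and 17.7%, and between GOM and ULB 20.5%, 18.8% and 19.4%. They were 5.17%, 1.24% and 1.07% between MAD and RAD, 11.2%, 12.1% and 7.67% between MAD and ULB, and 14.9%, 11.3% and 5.71% between RAD and ULB. An interaction of depot and diet was called for 0 of 6 bins by limma (22.3% of all bins), with 1 at an unadjusted p under 0.05.

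Between diets 2 of 72 tests passed, both in the bin of HOXC4 and HOXC5 from NC to WL. The index of this bin was 2.46 to 3.43 in NC MAD (median 2.93) and 3.26 to 4.60 in WL MAD (median 3.77). In RAD it was 2.24 to 3.37 in NC (median 2.84) and 3.23 to 4.24 in WL (median 3.88). The ranges overlapped slightly in both depots. The index was higher in WL by 0.85 ± 0.15 in MAD (difference ± SE, limma adjusted p = 0.000267) and by 0.95 ± 0.15 in RAD (3.97e-05). The median difference over all bins was 0.101 and 0.285 in these comparisons, and after quantile normalization neither bin passed, at 0.46 in MAD and 0.59 in RAD. HOXC4 RNA fell in the same 2 comparisons over all libraries, and HOXC5 RNA did not pass. Among RNA-seq libraries with a mitochondrial share of 10% or less, HOXC4 passed in 0 of 10 diet comparisons. Of all bins, 2.79%, 2.53% and 10.1% passed in GOM from NC to WG, WG to WL and NC to WL. In MAD the shares were 4.47%, 1.01% and 11.2%, in RAD 4.32%, 3.83% and 15.8%, and in ULB 6.15%, 9.96% and 13.6%. Of the 72 tests, 29 had an unadjusted p under 0.05, of which 28 were higher in the later diet, while after quantile normalization 22 did, of which 12 were higher.

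**Figure D4:**
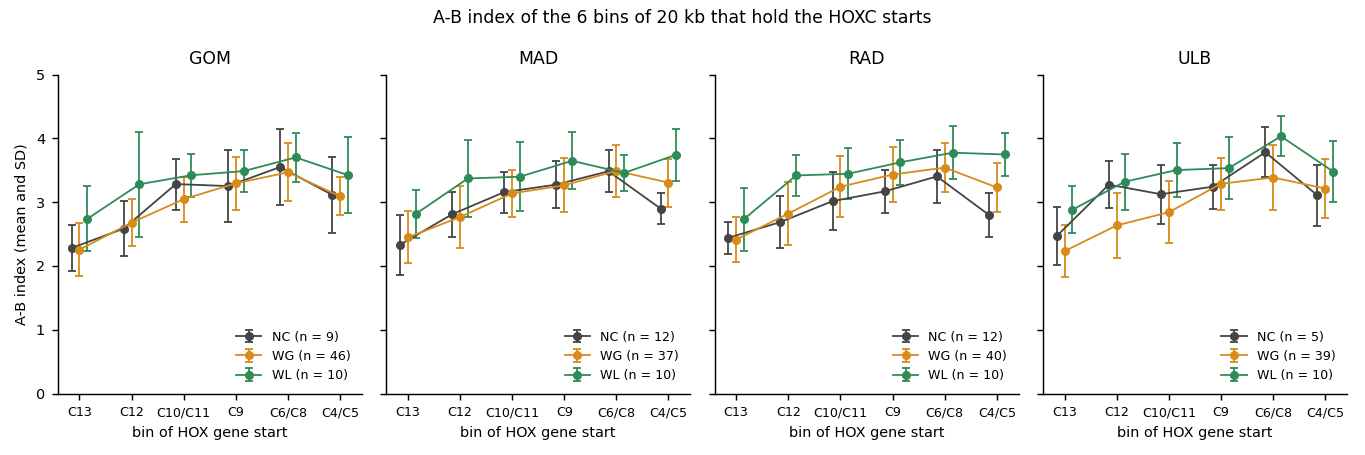
A-B index of the 6 bins holding the HOXC starts in the 12 groups, as the mean over Hi-C libraries with its SD. Each group is above 0 in every bin, and WL lies above NC and WG in the bin of HOXC4 and HOXC5.

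A boundary of a topologically associating domain, a stretch of chromatin that contacts mostly itself, lay inside the cluster in 238 of 240 libraries. Its most frequent place was 19200000, within the HOXC10 gene, where 54.2% of libraries had an edge. The edge was there in 62.9% of RAD and 59.3% of ULB libraries, and in 46.2% of GOM and 49.2% of MAD libraries. In NC it was there in 3 of 9 libraries of GOM, 7 of 12 of MAD, 11 of 12 of RAD and 5 of 5 of ULB. In WL the order was another, with the edge in 3 of 10 RAD libraries, 4 of 10 MAD libraries and 5 of 10 libraries each of GOM and ULB. Windows of the same number of bins over the genome held an edge in a median of 30 of 240 libraries, and 3.02% of 113244 such windows held one in as many libraries as the cluster did. These shares are given without a test.

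H3K27ac covered the starts of HOXC4, HOXC5 and HOXC6 in most tables of each depot, those of HOXC8, HOXC9 and HOXC10 in a number of tables that differed between depots, and none of the starts beyond. The 18 tables pool libraries and have no replicates, so no test was made. The paper formed the WG subgroups by clustering samples on estimated shares of adipocytes, macrophages and microvascular endothelial cells. The subgroups were 1, 3 and 5 in GOM, 2, 4 and 5 in MAD, and 5 and 6 in RAD and in ULB. Depots of WG therefore also differ in these composition classes. NC MAD and WG subgroup 6 of RAD held 1 library each. The start of HOXC6 lay in a region in all 18 tables, and that of HOXC5 in 5 of 5 tables of GOM, 5 of 5 of MAD, 4 of 4 of RAD and 3 of 4 of ULB. HOXC4 was covered at its start in 5 of 5, 5 of 5, 3 of 4 and 3 of 4. The start of HOXC8 lay in a region in 0 of 5 tables of GOM, 4 of 5 of MAD, 3 of 4 of RAD and 3 of 4 of ULB. HOXC9 was covered in 1 of 5, 5 of 5, 4 of 4 and 2 of 4, and HOXC10 in 0 of 5, 1 of 5, 2 of 4 and 1 of 4. The tables that covered HOXC10 were NC MAD, NC RAD, NC ULB and WG subgroup 5 of RAD. NC regions were stitched from up to 8 constituent peaks, so a start counted there can lie between peaks. The starts of HOXC11, HOXC12 and HOXC13 lay in no region in any table.

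Regions covered 32.6% of the cluster in NC GOM, 61.0% in NC MAD, 61.0% in NC RAD and 71.4% in NC ULB. In WL the shares were 34%, 49.9%, 52.3% and 52.6%, and in the WG subgroups they ran from 24.3% to 39.1% in GOM, from 38% to 51.3% in MAD, from 43.4% to 61.8% in RAD and from 29% to 46.3% in ULB. GOM had the lowest share in NC and WL. A super-enhancer, a region among those with the highest summed signal, overlapped the cluster in 6 of 18 tables, NC MAD, NC RAD, NC ULB, 1 WG table of ULB, WL RAD and WL ULB, and in none of the 5 GOM tables. In WL RAD it ran from 19200800 to 19253599 and in WL ULB from 19201200 to 19253199, from HOXC10 to HOXC4 in both. NC regions held up to 8 constituents while those of WG and WL held 1 each. Region lengths, covered shares, covered starts and super-enhancer marks therefore cannot be compared between NC and the other diets. The counts over 18 tables mix both kinds of region.

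**Figure D5:**
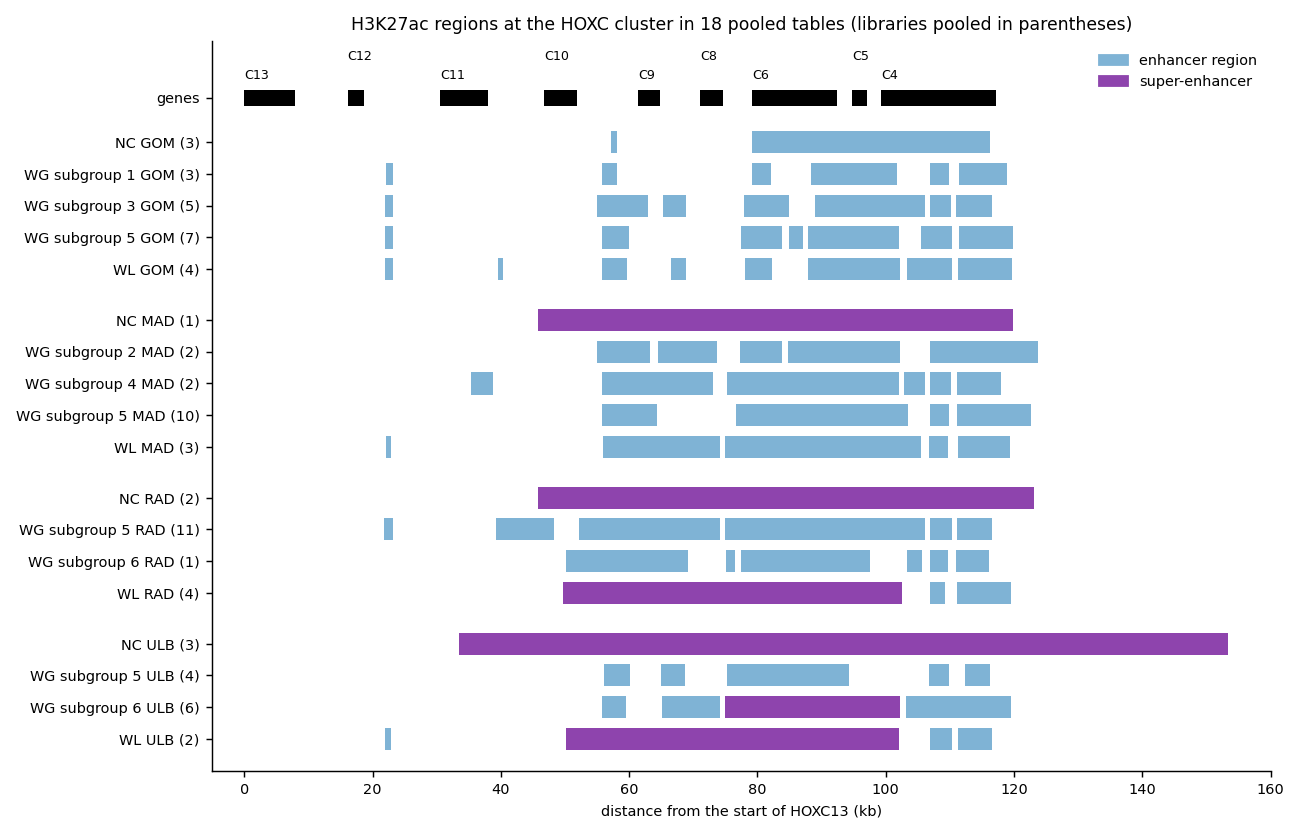
H3K27ac regions over the HOXC cluster in the 18 pooled tables, with distance from the start of HOXC13 in kb on the x axis, 1 row per table, super-enhancers in purple and the 9 genes in black at the top. No GOM table has a region over the start of HOXC8, and 1 of 5 has one over that of HOXC9.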

How the data were processed

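RNA-seq, Hi-C and H3K27ac ChIP-seq data of pig adipose tissue were used as deposited. The authors counted RNA reads with kallisto 0.43.0 in stranded mode and deposited expected counts and TPM per gene, from rRNA-depleted libraries. From Hi-C they deposited an A-B index score per 20-kb bin and domain tables, normalized between libraries, and from ChIP-seq (BWA 0.7.15, SAMtools 1.3.1, SICER) stitched H3K27ac regions with signal for pooled libraries. A further 9 columns of each whole-series table matched no sample and were not used.

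The HOXC genes and all gene lists were chosen with earlier results of these data known. Genes named were the 9 members, the 3 genes with the highest Pearson r of log2(TPM + 1) to each expressed member, and at most 3 genes of each list by largest change. Expected counts were rounded and tested for each pair of groups with edgeR 4.0.16 (R 4.3.3), TMM scaling and the quasi-likelihood test, keeping genes that exceeded 0.5 TPM in 80% or more of either group's libraries. The A-B index was tested per bin with limma 3.58.1. P-values were two-sided and Benjamini-Hochberg adjusted over all genes or 113298 bins of a comparison. Calls needed an adjusted p under 0.05 and a fold above 1.5, or an index difference above 0.75. Interactions were called by adjusted p alone. Both tests were checked on simulated data. Alternatives were DESeq2 1.42.0, RLE scaling, limma on log2(TPM + 1), no filter, no fold limit, the protein-coding share of the summed TPM, quantile normalization, left-out libraries, the library sets and the replicate number as a block. Replicate numbers paired expression samples in 4 comparisons of depots and in none of diets by a strict rule, every pair with r above 0.1. In WG, GOM missed it against MAD, RAD and ULB with 35 of 36, 37 of 39 and 37 of 38 pairs above 0.1. The median r of these pairs was 0.649, 0.588 and 0.615, so comparisons outside the rule can be paired too. The main tests used no block. Coordinates are those of Sscrofa11.1, which the lengths of 18 autosomes match. Sequences and gene positions were read from the RefSeq annotation and genome of that build. A few sequences and genes that these rules would name are not reported here.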

Additional observations from a re-analysis of the deposited data

Results flagged for a closer look

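In groups of 4 to 10 libraries the highest and the lowest value were compared with their neighbours by Dixon's test, over 26 expression groups and 36 A-B index groups of the HOXC genes. About 1 in 20 groups would be flagged by chance, and 4 were. HOXC5 had 3.313 TPM in WL MAD replicate 3, the highest of the group, with the next library at 1.977 TPM. The A-B index of the HOXC10 and HOXC11 bin was 2.075 in WL MAD replicate 10, the lowest of the group, with the next at 3.108. The index of the HOXC9 bin was 2.649 in NC ULB replicate 9, the lowest of 5, with the next at 3.298. The same bin had 4.818 in WL MAD replicate 2, the highest of the group, with the next at 3.806. None of these libraries stood apart in more than 1 of the flagged values.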

How the results depend on the processing

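Between depots, 42 tests of HOXC genes passed by edgeR, and 42 to 42 when 1 NC ULB library, or WG GOM replicate 35, was left out. DESeq2 gave 43, RLE scaling 41, limma on log2(TPM + 1) 34, no filter 46 of 161, no fold limit 43, the protein-coding share as a term 41, leaving out libraries of low protein-coding share 32, and the replicate block 45. Among the 4 comparisons that met the pairing rule, HOXC8 between MAD and RAD of WL was the call that changed under the block. Between diets, 18 passed, and 18 to 20 with 1 library left out. DESeq2 gave 21, RLE 19, no filter 25 of 107, no fold limit 19 and the protein-coding share as a term 17, while limma gave 11, leaving out low protein-coding shares 9 and the replicate block 11. Replicate numbers paired no samples between diets, so the block is an arbitrary pairing there, for expression and for the A-B index. The library set as a term gave 1 of 16 (6 without it), libraries above 10% gave 1 (7 without the split) and libraries at or below 10% gave 5 (15 without it). Without NC ULB replicate 2, or without replicate 7, the NC ULB libraries of low mitochondrial share, 2 diet differences of ULB passed. The direction turned among libraries at or below 10% for HOXC6 in MAD from NC to WG (0.55), from WG to WL (0.19) and from NC to WL (0.70), and for HOXC8 in MAD from NC to WL (0.54), and under the replicate block for HOXC8 in MAD from NC to WG (0.060). NC MAD held 3 libraries at or below 10%. The cause of these turns was not tested. For the A-B index between depots, no limit on the difference gave 7 (29.2% of all bins) and left-out libraries 0 to 1, and between diets no limit gave 17 (18.6%), quantile normalization 1 (another bin), the replicate block 4 and left-out libraries 2 to 4. HOXC12 in GOM passed in 2 further diet comparisons without WL GOM replicate 9 (differences of 0.81 and 0.90). The interaction in expression was called for 2 of 6 genes with the replicate block (44.4% of all genes), 1 with limma (11.8%), 1 with the library set as a term (18.6%) and 0 to 1 with left-out libraries. Counting super-enhancers only, 6 of 18 H3K27ac tables had a region at the cluster. Over these alternatives the expression calls were kept in 534 cases, lost in 75 and turned in 5. Of the kept cases, 60 came from the fit with no fold limit, which cannot lose a call. The 2 A-B index calls were kept in 4 cases and lost in 2. The kept cases were 2 with no limit on the difference, which cannot lose a call, and 2 under the replicate block. Quantile normalization lost both calls. Depth limited HOXC10 to HOXC13, which reached 3 counts in few libraries.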
